A study of Mus musculus with 8 samples.

Results

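The 10 transcription factors described here act in the vascular endothelium and were measured in mouse embryo cells that carry CD31, a surface protein of endothelium that platelets and some leukocytes also bear. They are the SoxF factors Sox7, Sox17 and Sox18, the Ets factors Etv2, Ets1 and Elk3, the Krüppel-like factors Klf2 and Klf4, and Mef2c and Foxo1. The genes were picked by name, and every array probe that carried one of the symbols was used. That gave 16 probes among 55681 non-control probes, and 10 genes among 24224 gene symbols in the scanner files. All 16 probes were well above background on all 8 arrays, and none was saturated. The probes of 1 gene share its RNA and are not replicates of each other.

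The study compared 4 wild type embryos with 4 littermates homozygous for the Gata2 +9.5 mutation (Gata2 +9.5-/-), which alters an enhancer inside an intron of Gata2. All 8 came from matings of heterozygous parents on the C57Bl/6J background and were taken at E12.5, midgestation. Each of 2 litters gave 2 embryos of each genotype: wild type 1 and 2 and mutants 1 and 2 came from litter 1, and wild type 3 and 4 and mutants 3 and 4 from litter 2. Cells were isolated from single embryos without liver and brain by magnetic beads coated with anti-CD31, and RNA of each embryo was read on 1 array of 1 colour. The mutation was present in all tissues of the mutant embryos, and the cells were enriched, not sorted to purity.

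SoxF proteins bind DNA through an HMG box and act in arterial specification, lymphatic development and blood formation from hemogenic endothelium, the endothelium that gives rise to blood cells. Ets factors share the ETS DNA-binding domain and occupy enhancers of most endothelial genes: Etv2 starts the endothelial and blood programme early in development and is then shut off, Ets1 acts in vessel growth, and Elk3 is a repressor that MAP kinase signals can turn into an activator. Klf2 and Klf4 respond to shear stress in endothelium, and the MADS-box factor Mef2c, downstream of the MEK5-ERK5 kinases, is a known activator of Klf2. Foxo1 restrains endothelial growth and is held out of the nucleus by PI3K-Akt signalling.

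The probe sequences bear on how 3 of the genes can be read. The brightest Etv2 probe and the brightest Ets1 probe share a run of 20 bases, in capitals below, in the part of both transcripts that encodes the ETS domain. The next longest run shared by any pair of member probes was 9 bases. The Mef2c probe is shown because its 60 bases cover 2238 bases of the genome, so it crosses an intron and reads spliced RNA. All 3 are 5′ to 3′ in the sense of the transcript, as the scanner files give them, with mm9 positions from the same files: the Etv2 probe at chr7:31418776-31418835 (minus strand), the Ets1 probe at chr9:32561826-32561885 (plus strand) and the Mef2c probe within chr13:83772788-83775025 (plus strand).
Etv2: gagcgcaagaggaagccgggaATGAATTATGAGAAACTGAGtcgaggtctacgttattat
Ets1: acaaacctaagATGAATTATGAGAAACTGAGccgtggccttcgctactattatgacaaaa
Mef2c: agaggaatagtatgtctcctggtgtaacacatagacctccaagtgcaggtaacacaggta
Whether either probe also reads the other gene's RNA was not tested. On wild type 3 the Etv2 probe read 1.29, its highest value of the 8 arrays, and the Ets1 probe 2.91, its lowest.

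Every value is log2 of the array's processed signal minus the 75th percentile of that array's non-control spots, so 1 unit is a doubling relative to that percentile. Endothelial markers were present on all arrays. All 17 pan-endothelial markers checked (among them Pecam1, Cdh5, Kdr, Tek and Tie1) were measured, and their median level was 6.25 at the highest on mutant 2 and 4.15 at the lowest on wild type 3. Gata2 itself was lower in the mutants: its probe read 2.00, 1.66, 0.89 and 1.42 on the 4 wild type arrays and -1.24, -0.15, -1.27 and -1.07 on the 4 mutant arrays. The groups did not overlap (exact two-sided permutation p = 0.0286, the smallest that 4 against 4 allows), although the difference of -2.42 ± 0.38 (SE) did not pass over all probes (limma, adjusted p = 0.0946). Gata2 passed under 5 of the 25 alternatives: a filter on all 8 arrays (adjusted p = 0.0284, limma), normexp (0.00722), a floor (0.0451), array weights (0.0312) and a variance trend (0.0133). The probe reads Gata2 RNA, not the mutated element.

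The arrays differed among themselves in ways that genotype does not give. The first principal component over all tested probes held 58.4% of the variance, and wild type 2, wild type 3 and mutant 4 lay at its far end, with scores of 105, 169 and 133 against -138 to 26.5 on the other 5 arrays. The spread of log2 values within an array, as an interquartile range, ran from 2.65 on mutant 4 to 4.10 on mutant 2. The 75th percentile that was subtracted was 2481 on wild type 3. On the other arrays it lay between 996 (wild type 1) and 1549 (mutant 4). Of the 48092 probes tested, 16 passed the genotype comparison (0.0333%), all lower in the mutants. Leaving out wild type 2, wild type 3 and mutant 4 together left 0 genotype calls by limma. At an unadjusted p of 0.05 there were 2601 probes, against 1430 with all arrays. That fit held only wild types 1 and 4 and mutants 1, 2 and 3. The loss of calls therefore cannot be told apart from the smaller number of arrays. The 10 platelet and megakaryocyte markers were all lower in the mutants, with a median difference of -2.77, and 3 of them passed (Treml1, Gp9 and Gp1ba). Of 9 granulocyte and mast cell markers tested, 4 passed, all lower. The part of these cells in the values of the 10 factors was not tested.

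None of the 10 factors passed the genotype comparison. At its brightest probe, each factor differed between mutants and wild types by less than the SD among its wild type arrays. In 0 of 10 were the arrays of the 2 genotypes apart, against 1.04% of all probes with a value on every array. Each genotype held both litters, so that SD and that overlap include the difference between litters given below. By limma, 0 of 10 passed at an adjusted p of 0.05 (0.0333% of all probes did), and 0 of 10 at an unadjusted p of 0.05 (2.97% of all probes did). The mutant mean was the higher one for 9 of 10 factors, with a median difference of 0.27. That direction was common among bright probes: of 10314 probes at least as bright as the dimmest of these factors other than Etv2, 94.71% had a difference above 0, with a median of 0.39. Over all tested probes 54% had one, with a median of 0.08.

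The sign of the differences also followed the scale. The median over all probes moved from 0.08 to 0.34 when arrays were centred on their medians, and all 10 factors then had the higher mean in the mutants (median 0.53). With quantile normalization 2 of 10 had it (median -0.07), with 0.06 as the median over all probes. None of the 10 passed under any of the 3 scales, where 0.0374% of all probes passed with median centring and 0.00208% with quantile normalization. The plot of differences by scale gives the intervals.

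**Figure D1:**
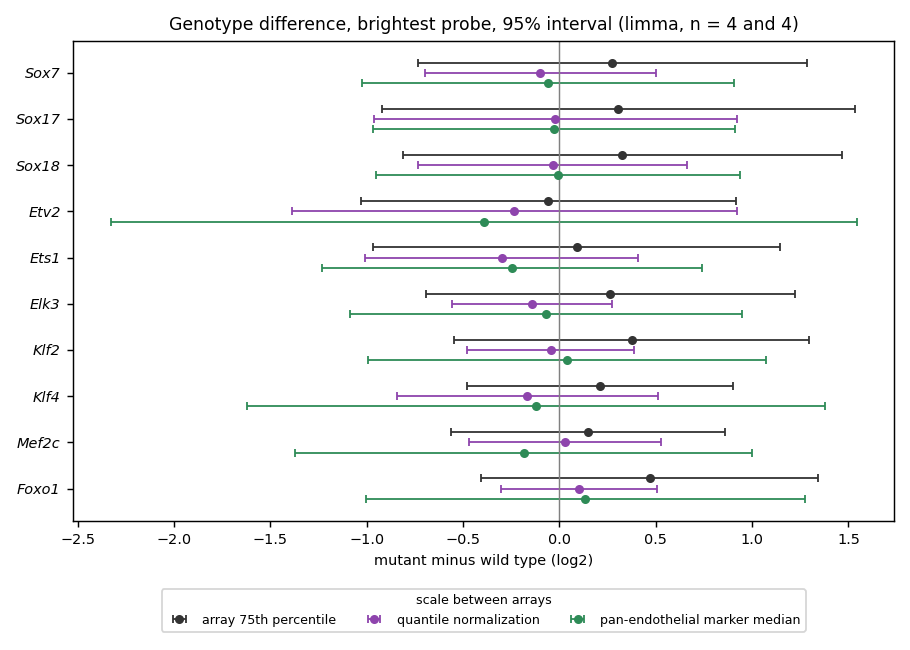
Mutant minus wild type difference (log2, horizontal axis) for the brightest probe of each factor. The 95% interval is from limma on genotype alone, without litter, 4 arrays a group. Black points are relative to the array's 75th percentile, purple points after quantile normalization and green points relative to the median of the pan-endothelial markers. All intervals include 0, and 7 factors change sign between the black and purple points.

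Sox7, a SoxF factor of early blood and endothelial progenitors, was read by 1 probe (chr14:64569419-64569478, plus strand, mm9). It stood at 3.61, 3.00, 2.15 and 2.67 on the wild type arrays and at 3.82, 3.73, 2.67 and 2.30 on the mutant arrays. The arrays of litter 1 were the 4 high ones in both genotypes, and the genotypes overlapped. The difference was 0.28 ± 0.46 (SE), with a 95% interval of -0.73 to 1.29 (limma, adjusted p = 0.774).

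Sox17, which is needed for arterial identity and for the hemogenic endothelium that makes blood stem cells, had 2 probes. The brighter (chr1:4481503-4481562, minus strand, mm9) read 3.15, 2.72, 1.09 and 2.04 in the wild types and 3.25, 3.42, 2.03 and 1.52 in the mutants. Wild type 3 was the lowest array and mutant 2 the highest, 2.33 apart, a span far wider than the genotype difference of 0.31 ± 0.56 (95% interval -0.92 to 1.53; limma, adjusted p = 0.790). The second probe gave 2.31, 1.66, 0.40 and 1.16 against 2.37, 2.49, 1.24 and 0.60, and followed the first across the 8 arrays with r = 0.994. Within litters the difference at the brighter probe was 0.41 in litter 1 and 0.21 in litter 2.

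Sox18, a regulator of lymphatic and vessel development, was read by 1 probe (chr2:181404789-181404848, minus strand, mm9). Its values were 3.78, 2.79, 1.82 and 2.65 in the wild types and 3.74, 3.82, 2.69 and 2.09 in the mutants. The order of the arrays was close to that of Sox17, with wild type 3 lowest and mutant 2 highest. The group means were 2.76 ± 0.81 and 3.09 ± 0.84 (SD, n = 4 each), and the difference of 0.33 ± 0.52 (SE) had a 95% interval of -0.81 to 1.47.

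**Figure D2:**
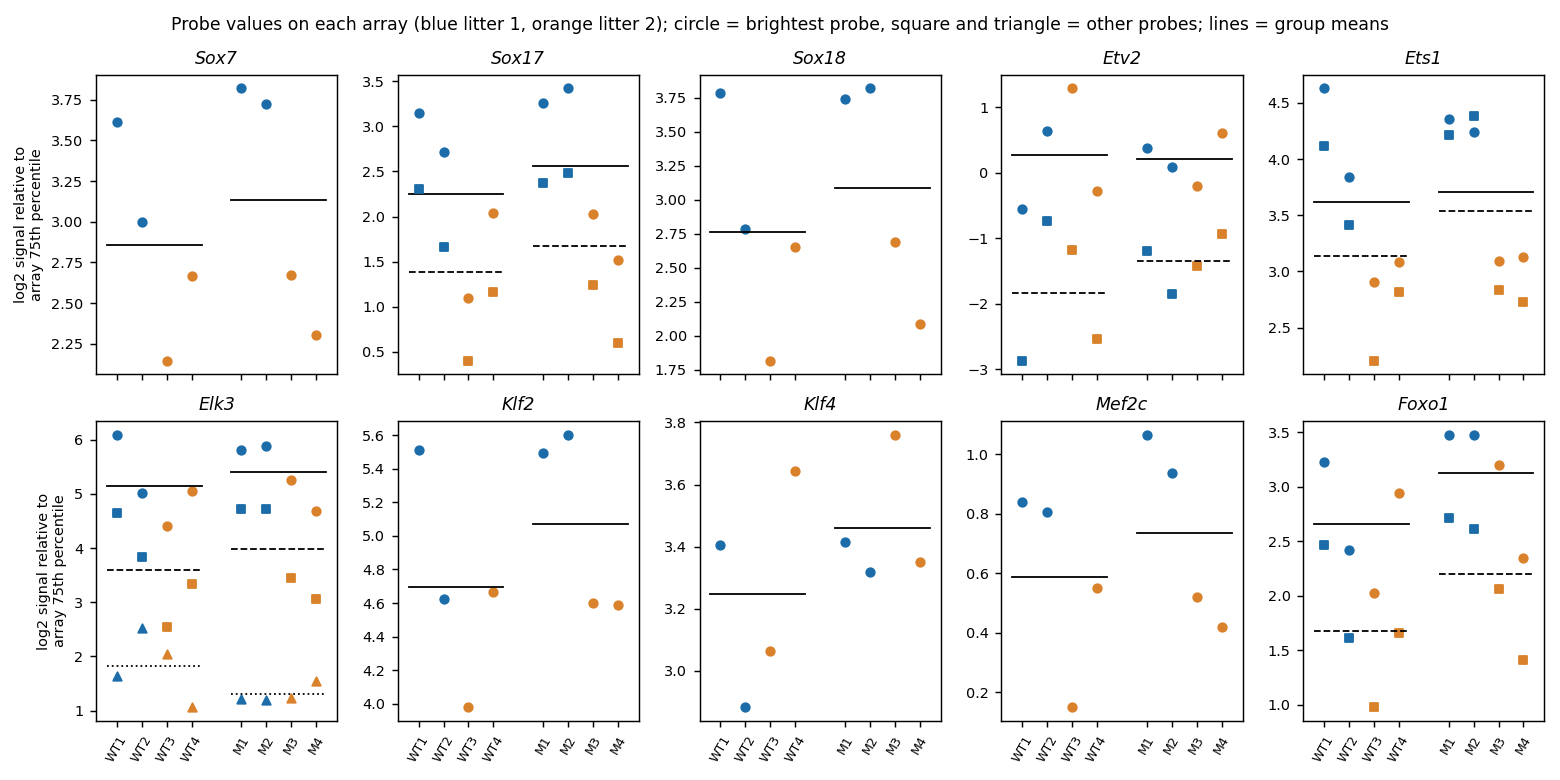
Value of each probe on each array (vertical axis, log2 signal relative to the array's 75th percentile) for the 10 factors, with wild type embryos WT1 to WT4 and mutants M1 to M4 on the horizontal axis. Blue points are litter 1 and orange points litter 2; circles are the brightest probe, squares and triangles the other probes, and solid, dashed and dotted lines the group means in that order. Within each probe of Sox7, Sox17, Sox18, Ets1 and Mef2c the blue points lie above all orange ones, while those of Klf4 and Etv2 do not.

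Etv2, the Ets factor of early hemangioblasts, was the dimmest of the 10 factors at the brightest probe, at percentile 75.4 of all tested probes. Its brightest probe read -0.56, 0.64, 1.29 and -0.27 in the wild types and 0.38, 0.08, -0.20 and 0.60 in the mutants. The wild type arrays spanned the mutant ones on both sides, and the difference was -0.06 ± 0.44 (95% interval -1.03 to 0.91; limma, adjusted p = 0.950). Its second probe (chr7:31419633-31419692) ran from -2.87 on wild type 1 to -0.74 on wild type 2 and had a difference of the other sign, 0.48. The 2 probes correlated at r = 0.79 over the 8 arrays. The sign at the brightest probe also turned, to 0.21 with arrays centred on their medians and to 0.50 without wild type 2, wild type 3 and mutant 4, so no direction can be given for Etv2.

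Ets1 had 2 probes, in the same transcript. The brightest, whose sequence is printed above, read 4.63, 3.84, 2.91 and 3.09 in the wild types and 4.36, 4.24, 3.09 and 3.13 in the mutants. The 4 arrays of litter 2 lay together, between 2.91 and 3.13, below all 4 arrays of litter 1. The genotype difference was 0.09 ± 0.48 (95% interval -0.97 to 1.15; limma, adjusted p = 0.929), and the other probe (chr9:32564860-32564919, plus strand) gave 0.40. Both are small beside the span of 1.72 among the 8 arrays at the brightest probe.

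Elk3 had 3 probes, and they disagreed. The brightest (chr10:92710178-92710237, minus strand) read 6.09, 5.02, 4.40 and 5.06 in the wild types and 5.81, 5.88, 5.26 and 4.68 in the mutants. The second (chr10:92712097-92712156) read 4.64, 3.83, 2.54 and 3.34 against 4.72, 4.72, 3.46 and 3.06, and correlated with the brightest at r = 0.957 over 8 arrays. The dimmest (chr10:92711627-92711686), which lies between the other two along the transcript, read 1.65, 2.52, 2.05 and 1.06 against 1.22, 1.20, 1.23 and 1.55, and correlated with them at r = -0.417 and -0.276. The first pair had differences of 0.26 ± 0.43 and 0.40 ± 0.54 (SE), and the dimmest had -0.52 ± 0.37 (limma, adjusted p = 0.717), the most negative difference of the 16 probes. No direction by genotype can be given for Elk3 from these probes.

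Klf2, a factor that flow induces and that keeps endothelium quiescent, was read by 1 probe (chr8:74845137-74845196, plus strand, mm9). It stood at 5.51, 4.62, 3.98 and 4.67 in the wild types and at 5.49, 5.60, 4.60 and 4.59 in the mutants. Wild type 3 was lowest again, and the other 3 arrays of litter 2 lay with wild type 2 between 4.59 and 4.67. The difference was 0.38 ± 0.42 (95% interval -0.55 to 1.30; limma, adjusted p = 0.717).

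Klf4, its close relative, which also acts in epithelium, smooth muscle and monocytes, had the narrowest span of the 16 probes. Its probe (chr4:55540167-55540226, minus strand) read 3.41, 2.88, 3.06 and 3.64 in the wild types and 3.41, 3.32, 3.76 and 3.35 in the mutants. The highest array was mutant 3 and the lowest wild type 2, 0.88 apart, and the litters overlapped. The genotype difference was 0.21 ± 0.31 (95% interval -0.48 to 0.90), with 0.22 in litter 1 and 0.20 in litter 2.

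Mef2c, read by the intron-crossing probe, gave 0.84, 0.81, 0.15 and 0.55 in the wild types and 1.06, 0.94, 0.52 and 0.42 in the mutants. Litter 1 was above litter 2 on every array, from 0.81 to 1.06 against 0.15 to 0.55. The genotype means were 0.59 ± 0.32 and 0.74 ± 0.31 (SD, n = 4 each), which overlapped, and the difference was 0.15 ± 0.32 (SE; limma, adjusted p = 0.821).

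Foxo1 had the highest genotype difference of the 10 brightest probes. That probe (chr3:52150183-52150242, plus strand) read 3.23, 2.41, 2.02 and 2.95 in the wild types and 3.47, 3.48, 3.20 and 2.34 in the mutants. Mutant 4 lay among the wild types, and the other 3 mutants were at or close to the top. The difference was 0.47 ± 0.40, with a 95% interval of -0.41 to 1.34 (limma, adjusted p = 0.717; exact two-sided permutation p = 0.257). The second probe (chr3:52153289-52153348) read 2.46, 1.61, 0.98 and 1.66 against 2.71, 2.61, 2.06 and 1.41, a difference of 0.52 ± 0.42. Foxo1 was the 1 factor that passed under any of the 25 alternatives: with arrays weighted by quality its difference was 0.91 ± 0.28 (limma, adjusted p = 0.0431), in a fit that called 15684 of the 48092 probes and gave mutant 4 the lowest weight (0.28).

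The difference between genotypes was not shown to depend on litter. In limma's test of litter by genotype, 0 of 48092 probes passed (0%), with 1.25% past an unadjusted p of 0.05, and the adjusted p was 1 for each of the 16 probes. The intervals were wide: for Sox17 the interaction was -0.20, with a 95% interval of -1.75 to 1.35, and for Foxo1 it was -0.37 (-2.07 to 1.33). With litter as a block, 0 of the 10 factors and 0% of all probes passed by genotype (limma; 2338 probes at an unadjusted p of 0.05). The SE and interval given above for each factor's genotype difference are from genotype alone, which leaves the litter difference in the error. With the block the unadjusted limma p was lower at each of the 10 brightest probes. It was 0.354 in place of 0.560 for Sox7 and 0.341 in place of 0.594 for Sox17. The lowest of the 10 was 0.206 (Foxo1) and the highest 0.896 (Etv2).

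Between litters 2 of the 10 factors did differ at the adjusted threshold. Sox17 was lower in litter 2 by 1.47 on the log2 scale, a 2.76-fold lower signal (-1.47 ± 0.30 SE; limma, adjusted p = 0.0314), and Ets1 was lower 2.32-fold (-1.21 ± 0.27; adjusted p = 0.0379, limma). Those 2 of 10 factors passed, where 0.986% of all probes passed in that direction and 5.18% in either. For 5 of 10 (Sox7, Sox17, Sox18, Ets1 and Mef2c) every litter 2 array lay below every litter 1 array, against 3.7% of all probes. At an unadjusted p of 0.05 the count was 6 of 10 (26.5% of all probes), and 8 of 10 had a difference below 0 (36.9% of all probes, and most of the 10314 bright ones, of which 12.07% were above 0). Sox7 had a difference of -1.09 ± 0.28 (adjusted p = 0.0569, limma) and Sox18 -1.22 ± 0.34 (adjusted p = 0.0685, limma), and neither passed. At the other probes of Sox17 and Ets1 and at the second Elk3 probe the litter difference also passed: -1.36, -1.39 and -1.38, with adjusted p of 0.0407, 0.0305 and 0.0385 (limma).

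The remaining factors did not pass. Elk3 and Klf2 each had -0.85 at the brightest probe with overlapping litters (limma, adjusted p = 0.146 and 0.124), Foxo1 had -0.52 (0.334) and Mef2c -0.50 (0.217). Klf4 had 0.20 (95% interval -0.42 to 0.82) and Etv2 0.22 (-0.75 to 1.19), the 2 factors with the higher mean in litter 2. The 4 arrays of each litter also lay on a slide of their own, so litter and slide cannot be told apart. The same holds for any other step that was done separately for each litter. Neither call was kept in most fits with 1 array left out. Over the 8 such fits the probes called by litter ran from 86 to 5427, against 2489 with all arrays. With 1 array left out at a time the Sox17 difference stayed between -1.68 and -1.30, but its call was kept in 2 of the 8 cases (without wild type 2 or without wild type 4). The Ets1 difference stayed between -1.37 and -1.05, and its call was kept in 1 case (without wild type 2).

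The share of probes lower in litter 2 moved with the scale. Of the 2489 probes called, 2015 were higher and 474 lower relative to the 75th percentile. With arrays centred on their medians 2.59% of probes were called, 527 higher and 720 lower, and with quantile normalization 1.82%, 466 higher and 407 lower. Sox17 was called under all 3, with -1.93 and -1.06 under the last pair, and Ets1 was not called with quantile normalization (-0.68; limma, adjusted p = 0.131). Klf4 turned sign, to -0.27, with arrays centred on their medians.

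**Figure D3:**
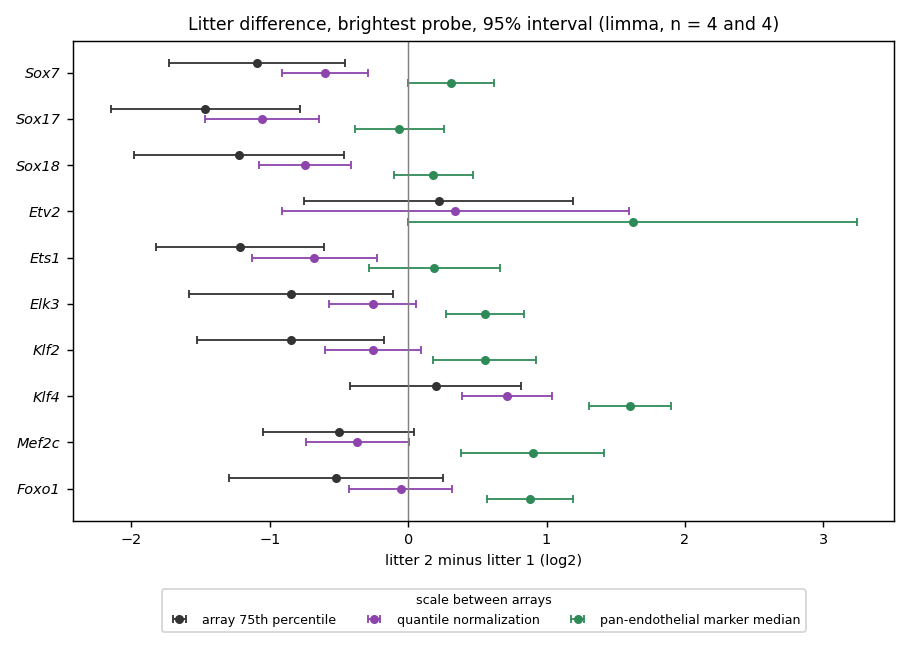
Litter 2 minus litter 1 difference (log2, horizontal axis) for the brightest probe of each factor, with the 95% interval from limma, 4 arrays a litter. Black points are relative to the array's 75th percentile, purple points after quantile normalization and green points relative to the median of the pan-endothelial markers. Sox7, Sox17, Sox18 and Ets1 lie below 0 in black and purple and between -0.06 and 0.31 in green. All green points other than that of Sox17 lie above 0.

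Levels of other genes moved with litter too. All 17 pan-endothelial markers were lower in litter 2, with a median difference of -0.97, and 4 passed (Kdr, Cdh5, Ecscr and Esam). Macrophage markers were higher there: the median of the 10 lay between -1.27 and -0.45 on the arrays of litter 1 and between 0.80 and 1.08 on those of litter 2, and 7 passed, all higher. Erythroid markers had a median between 0.87 and 1.63 in litter 1 and between 3.20 and 4.50 in litter 2, and 4 of 8 passed, all higher, among them the embryonic globin Hbb-bh1. Cartilage markers had a median difference of 1.55, and 4 of 6 passed. The 10 mesenchyme and pericyte markers (median 0.67), the 8 skeletal muscle markers tested (0.83) and the 8 epithelial markers (0.65) all had the higher mean in litter 2. By limma 0, 0 and 1 of them passed, with 3, 5 and 3 at an unadjusted p of 0.05. Over all probes 5.18% passed by litter, 26.5% had an unadjusted p below 0.05 and 36.9% had the lower mean in litter 2. The 3 mesenchyme and pericyte and 3 epithelial markers at an unadjusted p of 0.05 were not far above that share. In such mixed RNA, fewer endothelial cells and less RNA per endothelial cell cannot be told apart. The part of these other cells in the litter difference of the factors was not tested.

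Relative to the pan-endothelial markers, the genotypes of each SoxF factor overlapped as well. The median of the 17 markers was the value of Kdr, the VEGF receptor, on every array, so this scale is the factor's log2 ratio to Kdr. On it Sox17 was -3.06, -2.72, -3.06 and -2.80 in the wild types and -2.96, -2.83, -3.02 and -2.95 in the mutants. The 8 arrays spanned 0.34, against 2.33 relative to the 75th percentile and 0.84 relative to the mean of the other 16 markers. Kdr is itself among the known targets of these factors listed below. It is also among the genes most like the SoxF mean across the arrays (r = 0.997), so a narrow SoxF span against it is not a separate result. The means against Kdr were -2.91 ± 0.18 and -2.94 ± 0.08 (SD, n = 4 each; exact two-sided permutation p = 0.829). Against Kdr, Sox18 had -2.40 ± 0.20 and -2.41 ± 0.05 with a span of 0.47, and Sox7 -2.30 ± 0.26 and -2.36 ± 0.15 with a span of 0.59. Against the mean of the other 16 markers the genotype means were -2.96 and -2.90 for Sox17, -2.45 and -2.37 for Sox18, and -2.35 and -2.32 for Sox7 (wild type first). The 3 Elk3 probes disagreed here too: the brightest spanned 0.66 with every array of litter 2 above litter 1, the second 0.21 and the dimmest 2.95.

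The litter difference on this scale depended on which markers stood for the endothelium. Against Kdr, Sox17 overlapped between litters (means of -2.89 and -2.96), and Sox7 and Sox18 were higher in litter 2 on every array. Against the mean of the other 16 markers, an alternative added after the data had been seen, Sox17 was lower in litter 2 on every array (-2.63 and -3.23; limma on this scale, difference -0.59, adjusted p = 0.0191), as was Sox18, and Sox7 overlapped. On the scale of the 16 markers the brightest Elk3 probe spanned 0.22 with overlapping litters, the second 0.72 with litter 2 lower on every array, and the dimmest 2.41.

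Of the 10 factors, 1 was lower in litter 2 against Kdr and 4 against the mean of the other 16 markers. Klf4 was higher in litter 2 on both endothelial scales. Against Kdr it was between -2.94 and -2.56 on the arrays of litter 1 and between -1.29 and -1.09 on those of litter 2, a difference of 1.60 (limma, adjusted p = 0.00026). Against the mean of 16 markers the difference was 1.07 (limma, adjusted p = 0.00237). On the first of these scales 81.5% of all probes passed by litter and 0.168% were lower, and on the second 42.6% and 0.663%, so a higher level relative to endothelial markers in litter 2 was the common case. Foxo1 was higher in litter 2 on every array on both scales at its brightest probe, by 0.88 and 0.35. Etv2 had no stable ratio to these markers, with a span of 3.90 against Kdr.

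By genotype, 0 of 10 factors and 0 of 48092 probes passed on either endothelial scale (0% in each by limma, with 159 and 299 probes at an unadjusted p of 0.05). The 1 member probe with separated genotypes was the second Foxo1 probe against the mean of 16 markers. There the wild types read -3.58, -3.58, -3.41 and -3.57 and the mutants -3.25, -3.27, -3.19 and -3.32. All mutants were above all wild types (exact two-sided permutation p = 0.0286, the smallest possible, 1 of 16 probes on this scale, unadjusted), while limma gave 0.28 ± 0.20 with an adjusted p of 1. Against Kdr the same probe overlapped (permutation p = 0.486, exact), as did the brightest Foxo1 probe on both scales.

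Other members of the same families did not pass by genotype either. Of 22 other Ets factors tested, 16 had the higher mean in the mutants and 6 the lower, and 0 passed by limma. The brightest were Elk1 (0.25 ± 0.34) and Ets2 (0.28 ± 0.39). At an unadjusted p of 0.05 there were 2, Etv4 (1.02 ± 0.44) and Etv5 (0.80 ± 0.35), both targets of FGF signalling and both higher in the mutants (adjusted p = 0.717 for each, limma), and they are named after their values had been seen. By litter 2 of the 22 passed, where 5.18% of all probes did. Erg, an Ets factor that maintains endothelial identity, was lower in litter 2 (-1.24, limma adjusted p = 0.0358). Spi1 (PU.1), which drives macrophage development, was higher (1.92, limma adjusted p = 0.0210).

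Of 14 other Krüppel-like factors tested, 9 had the higher mean in the mutants and 5 the lower, and 0 passed by genotype or by litter (limma; 0 and 1 at an unadjusted p of 0.05). The brightest were Klf6 (0.22 ± 0.35) and Klf7 (0.32 ± 0.38). Of 14 other Sox factors tested, 11 had the higher mean and 3 the lower, and 0 passed by genotype (limma; 0 also at an unadjusted p of 0.05), with Sox5 (0.43 ± 0.32) and Sox4 (0.60 ± 0.35) the brightest. Sox2 and Sox14, which are known from neural tissue, were higher in litter 2 (1.77 and 1.11; limma, adjusted p = 0.0145 and 0.0400). By litter, 3 of these 14 had the lower mean in litter 2, beside all 3 SoxF factors. The level of the probes differed too. Those 3 (Sox4, Sox11 and Sox13) had mean levels of 5.14, 2.30 and 0.44, and Sox5, at 6.21, differed by 0.05. The other Sox probes had mean levels of -0.82 or lower. The SoxF probes belonged to the 10314 bright ones, of which 12.07% had a litter difference above 0.

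A further 21 endothelial transcription factors, Gata2 among them, had the higher mean in the mutants for 16 and the lower for 5, and 0 passed by limma (Gata2 alone at an unadjusted p of 0.05). The brightest were Epas1, the hypoxia factor HIF-2 alpha (0.39 ± 0.43), and Lmo2, a partner of Tal1 in blood and endothelium (0.62 ± 0.46). Of 25 genes known as targets of these factors in endothelium, 18 had the higher mean in the mutants and 7 the lower, with a median of 0.29, and 0 passed by limma (0 also at an unadjusted p of 0.05). The tight junction protein Cldn5 differed by -0.04 ± 0.37 and Kdr by 0.33 ± 0.54. By litter, Kdr (-1.40; limma, adjusted p = 0.0359) and Cdh5, the cadherin of endothelial junctions (-1.44; adjusted p = 0.0328, limma), were lower in litter 2, with 0 of the other 23 targets passing. Over all probes 5.18% passed by litter. All of these lists stand beside a median of 0.08 over all probes by genotype and 0.30 by litter. Over the 10314 bright probes the medians were 0.39 by genotype and -0.49 by litter.

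The arrays ordered many genes alike. Over 18438 genes, the 5 whose brightest probe was most like the mean of Sox7, Sox17 and Sox18 across the 8 arrays were Nqo2 (r = 0.999), Plau (0.997), Adora2a (0.997), Kdr (0.997) and Dolpp1 (0.996). For the mean of Klf2 and Klf4 they were Hnrnpdl (0.998), Sec13 (0.997), Emc3 (0.997), Slc25a14 (0.997) and Senp2 (0.996). Such values were common: 17.32% of genes had an r above 0.9 with the SoxF mean and 34.46% with the Klf mean. What ordered so many genes alike over the 8 arrays was not tested.

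The promoters of these factors were searched because Mef2c, Foxo1, the Klf and the Ets factors are known to act on one another's genes. RefSeq windows (GRCm38.p6) of 250 bases before the start were at hand for 6 of the 10 genes, 8 windows in all, among 32851. A MEF2 consensus was found in 1 of the 8, that of Klf2, and in 2.92% of all windows. It is printed because MEF2 factors are known activators of Klf2, with the match in capitals (118 to 109 bases before the start, chr8:72318944-72318953) in the window chr8:72318812-72319061, plus strand.
Klf2: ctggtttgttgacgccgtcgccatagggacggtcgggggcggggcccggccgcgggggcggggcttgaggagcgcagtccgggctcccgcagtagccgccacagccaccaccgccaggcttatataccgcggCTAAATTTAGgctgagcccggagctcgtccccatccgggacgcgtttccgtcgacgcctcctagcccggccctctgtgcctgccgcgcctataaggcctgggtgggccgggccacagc
All motifs were searched on both strands, and matches of different motifs may overlap. The Klf letters CCACCC were in 4 of the 8 windows (Klf2, Elk3 and both of Mef2c) and in 28.1% of all. For Foxo factors the letters GTAAACA were in 0 of the 8 and in 3.17% of all. For Sox factors the letters AACAAT were in 0 of the 8 and in 9.42% of all. For Ets factors the letters CCGGAAG were in 0 of the 8 and in 6.91% of all. For Gata factors the letters AGATAA were in 0 of the 8 and in 9.99% of all. Across the arrays, where Mef2c and Klf2 were both lowest on wild type 3, their genotype differences were 0.15 and 0.38, each within its replicate spread. That low was not particular to this pair. Wild type 3 was also the lowest array at the brightest probes of Sox7, Sox17, Sox18, Ets1, Elk3 and Foxo1. The 75th percentile subtracted from wild type 3 was the highest of all arrays, and its part in these low values was not tested. Action of Mef2c on Klf2 was not tested.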

How the data were processed

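Each of 8 Agilent arrays read Cy3-labelled cRNA of 1 embryo, 4 of each genotype. Per the file headers, the deposited intensities were made with Feature Extraction 10.7.3.1 (mm9 annotation) and had local background removed and a multiplicative trend corrected on each array, while arrays were not normalized to each other. The submitters' processing notes name limma for the authors' deposited table, which holds log2 values centred near each array's median and p-values for the genotype. Those log2 values served as an alternative.

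From the intensities, log2 minus each array's 75th percentile was taken. Control and outlier spots were left out, spots of a probe averaged, and the 48092 probes well above background on at least 4 arrays, with 3 values a group, tested with limma 3.58.1 in R 4.3.3, with p-values adjusted over all of them by Benjamini-Hochberg (threshold 0.05). The array number limits the precision. The script was tested on simulated data. Exact permutation tests over the 70 arrangements are two-sided and unadjusted. The brightest probe stands for a gene in counts. Genes named from family lists were those past the threshold or else the 2 brightest. RefSeq accessions named 26762 probes, symbols or synonyms 4458 and the files alone 2044, and 22417 had no gene name. The members and lists were chosen with earlier results of these data known.

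Litters pair embryos of both genotypes per the labels. Sample numbers shared between genotypes did not pair them: the correlation of deviations was 0.62, -0.03, -0.08 and -0.15 for numbers 1 to 4. Tried alternatives were the filter, the scale between arrays, normexp background correction (offset 50), a floor, array weights, a variance trend, blocks by litter or sample number, and leaving out arrays.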

Additional observations from a re-analysis of the deposited data

Results flagged for a closer look

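At the dimmest of the 3 Elk3 probes, mutant 4 stood apart from the other mutants. It read 1.55, against 1.22, 1.20 and 1.23 on mutants 1, 2 and 3 (log2 relative to the array's 75th percentile), and its gap to the nearest of them was above Dixon's 95% critical value for 4 samples. It was the 1 such case among 32 groups of 4 looked at, and chance gives about 1 in 20.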

How the results depend on the processing

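Of 25 alternatives, 0 other than array weights brought a factor past the genotype threshold: with array weights 1 factor passed (Foxo1). For genotype, the 16 probes called became 29 with a filter on all 8 arrays, 8 with no filter, 1 with quantile normalization, 42 with normexp, 3 with normexp and quantile normalization, 32 with a floor, 54 with the authors' deposited values, 15684 with array weights (5563 higher and 10121 lower) and 33 with a variance trend. The count was 0 with either endothelial centring, 0 without wild type 2, wild type 3 and mutant 4, 0 with the replicate block by litter, 0 with the replicate block by sample number, and between 0 and 23 when single arrays were left out. The blocks changed no call of the 10 factors. The authors' deposited values gave 4 probes for the interaction in place of 0, and 13 of their 54 genotype calls were higher and 41 lower.

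By litter, the 2489 probes called became 1247 with median centring, 873 with quantile normalization, 1474 with normexp, 1477 with normexp and quantile normalization, 39197 against the endothelial median, 20480 against the mean of 16 markers, 7554 without the 3 arrays that stand apart, and 86 to 5427 when single arrays were left out. The 2 factors called by litter became 1 with quantile normalization, 4 with normexp, 4 with normexp and quantile normalization (Klf4 higher, the other 3 lower), 5 against the endothelial median (Elk3, Klf2, Klf4, Mef2c and Foxo1, all higher in litter 2, with neither Sox17 nor Ets1), 4 with the authors' deposited values, 4 with a variance trend, 5 without the 3 arrays, and 0 to 5 without single arrays.

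Genotype differences that turned sign with quantile normalization were those of Sox7 (-0.099), Sox17 (-0.021), Sox18 (-0.034), Ets1 (-0.30), Elk3 (-0.14), Klf2 (-0.045) and Klf4 (-0.17), and with normexp added they were -0.077, -0.045, -0.017, -0.28, -0.12, -0.075 and -0.16 in that order. Against the endothelial median they were Sox7 (-0.059), Sox17 (-0.029), Sox18 (-0.0080), Ets1 (-0.25), Elk3 (-0.072), Klf4 (-0.12) and Mef2c (-0.19), and against the mean of 16 markers Ets1 (-0.16), Klf4 (-0.034) and Mef2c (-0.097). Etv2 became 0.21 with median centring, 0.21 with the authors' values and 0.50 without the 3 arrays, where Klf4 became -0.027. Without single arrays Sox17 ran from -0.080 to 0.65, Ets1 from -0.15 to 0.43 and Etv2 from -0.34 to 0.28.

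Litter differences that turned sign against the endothelial median were those of Sox7 (0.31), Sox18 (0.18), Ets1 (0.19), Elk3 (0.55), Klf2 (0.55), Mef2c (0.90), Foxo1 (0.88) and Gata2 (0.83). Against the mean of 16 markers they were Elk3 (0.024), Klf2 (0.022), Mef2c (0.37), Foxo1 (0.35) and Gata2 (0.30). With median centring Etv2 became -0.25 and Klf4 -0.27, with the authors' values likewise -0.25 and -0.27, and Etv2 became -0.023 with array weights, -0.12 without the 3 arrays and -0.14 to 0.48 without single arrays. Where a value moved, the cause was not tested. All 16 probes were well above background on all arrays, and each group has 4 arrays.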
